A study of Mus musculus with 12 samples.

Results

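The 32 genes described here mark the oligodendrocyte lineage and the myelin sheath. They range from progenitor receptors through lineage transcription factors to the structural proteins and lipid enzymes of myelin. A gene was taken when the gene symbol column of the authors' deposited RMA table held its symbol alone. Its brightest probe set, judged by the mean over the 6 arrays, stood for it, and an _x_at probe set did so only where there was no other. Of the 32 genes, 31 had such a probe set, out of 20752 genes on the array, and 69 probe sets in all. Trf, which encodes the iron carrier transferrin, shared its probe set with another symbol and was left out. Gjb1, which encodes the gap junction protein connexin 32, was too dim to be tested, and the remaining 30 genes were tested among 13203. Mice of both groups carried PABPC1-FLAG, a tagged poly(A)-binding protein, in the basolateral amygdala (BLA), where the promoter of fos, a gene switched on by neuronal activity, drove it. The groups were mice that received footshocks (shock) and mice that met a female mouse (female), with 3 arrays each. An antibody to FLAG pulled down the protein with its mRNA. Each sample pooled 2 mice, and the design note gives 3 mice for a group, so arrays of a group may share mice and every p-value below measures the spread between arrays. The labels give no strain or age. They name the cells as neurons, and the tag marks only cells in which the fos promoter was active. Each Affymetrix Mouse 430 2.0 array was deposited once as RMA and once as MAS5 values. The comparison of shock with female asks how mRNA of BLA cells active in an aversive experience differs from that of cells active in a rewarding one.

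Oligodendrocytes wrap axons in myelin, a stack of membrane that speeds conduction. They arise from progenitors that carry the receptor for platelet-derived growth factor and the proteoglycan NG2, pass through a committed stage, and mature under the transcription factors Olig1, Olig2 and Sox10. Compact myelin is held together by basic proteins such as Mbp, while Mag and Cnp lie in the non-compact parts next to the axon and at the loops. Much of the membrane is made of galactolipids and cholesterol, which dedicated enzymes supply. Neurons do not make the structural proteins of myelin in quantity, so these transcripts are usually read as coming from oligodendrocytes.

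The 6 arrays differed in more than the group. Correlations between arrays over the tested probe sets ran from 0.991 to 0.993 within shock, from 0.974 to 0.994 within female and from 0.936 to 0.985 between the groups. Female replicate 2 stood apart from the other female arrays, and results that rest on it are given with and without it. The signal along transcripts also separated the groups. In 2740 genes, tested probe sets lay 500 to 20000 bases apart by the middle of their listed intervals. The first and the last along the gene are called 5' and 3' here, although their intervals can overlap. Over these genes the median 5' minus 3' signal was -0.81, -0.74 and -0.75 in shock, against -0.57, -0.38 and -0.57 in female (log2). For the Gapdh controls, 3' minus 5' signal was 4.51, 4.14 and 4.64 in shock, against 3.36, 2.52 and 3.13 in female (log2), and neither measure overlapped between the groups. On both measures female replicate 2 lay farthest from the shock arrays. The part of this difference in the results below cannot be told apart from the group, since all shock arrays lie on one side of all female arrays.

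**Figure D1:**
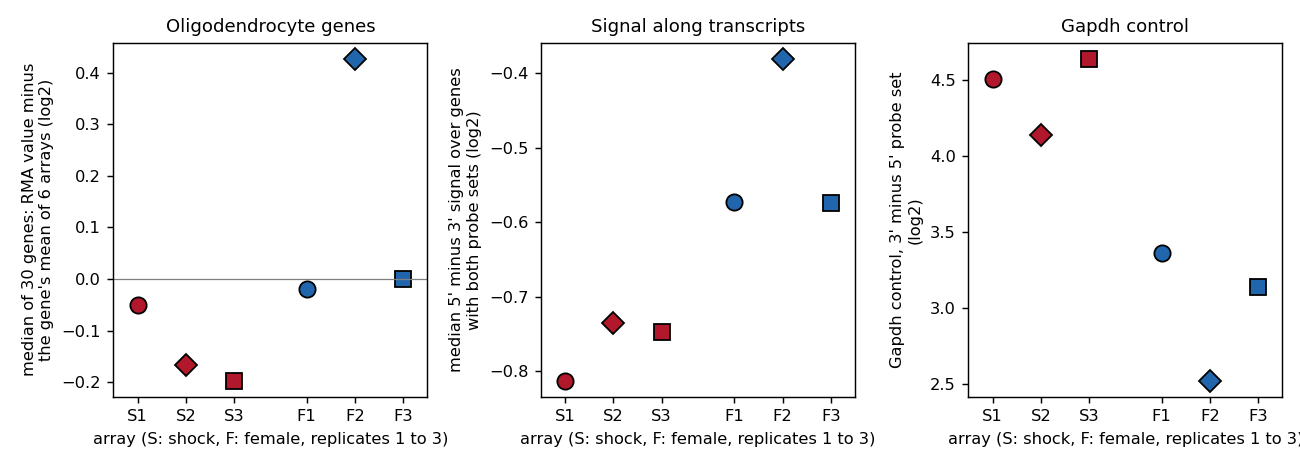
The y axes show, for each array, the median of the 30 tested oligodendrocyte genes relative to each gene's mean of 6 arrays, the median 5' minus 3' signal, and the 3' minus 5' signal of the Gapdh control (all log2). Red marks are shock arrays and blue marks female arrays, and female replicate 2 is the highest, the highest and the lowest of the 6 in turn.

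Of the 30 tested oligodendrocyte and myelin genes, 5 were lower in shock than in female, none was higher, and 25 did not pass the test. The called genes were Mag and Cnp of the myelin proteins, Olig1 and Nkx6-2 of the transcription factors, and Cspg4 of the progenitor genes. A gene passed when its limma adjusted p, Benjamini-Hochberg over all 27022 probe sets tested, lay under 0.05. The 5 genes are 16.7% of those tested, whereas 20% of all tested genes passed in either direction and 9.4% passed as lower in shock. The difference, shock minus female, was below 0 in 27 of the 30, or 90.0%, against 42.3% of all tested genes. The median difference was -0.29 (quartiles -0.40 and -0.07), against 0.06 over all genes (quartiles -0.15 and 0.26, log2). In 15 genes, all lower in shock, the groups did not overlap. Over all tested genes, the groups did not overlap in 48.7%, and 20% were lower in shock without overlap. An unadjusted p under 0.05 was reached by 9 of the 30 genes, against 39.8% of all tested genes.

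Female replicate 2 carried much of the distance. It was the highest of the 6 arrays in 24 of the 30 genes, and it lay above both other female arrays in 28 of them. Over all tested genes, 23.5% were highest in this array, and in 30.2% it lay above both other female arrays. The median over the 30 genes, each relative to its own mean, was -0.05, -0.17 and -0.20 in shock, against -0.02, 0.43 and 0.00 in female (log2). The 3 shock arrays lay lowest, female replicates 1 and 3 lay near 0 and female replicate 2 far above. The summed MAS5 signal of the 30 genes was 51056, 51750 and 49590 in shock, against 56496, 77641 and 59290 in female. Without female replicate 2, the median difference was -0.13, and 4 genes passed, Mag, Cnp, Olig1 and Nkx6-2. For that fit the share of all genes that passed is not given here. None of the 30 passed without any 1 shock array. Of all 27022 probe sets, 321, 1562 and 1312 passed without shock replicates 1, 2 and 3. None of the 30 passed when that 5' minus 3' measure was a covariate of the fit, where the median difference was 0.19. Only 1 of the 27022 probe sets passed there. The covariate does not overlap between the groups, so this fit cannot separate it from the group and could call little in any gene. The RNA was a pull-down by the tag from pooled tissue, so in these values the number of oligodendrocytes, the RNA in each of them and the carry-over of RNA from cells without the tag cannot be told apart.

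**Figure D2:**
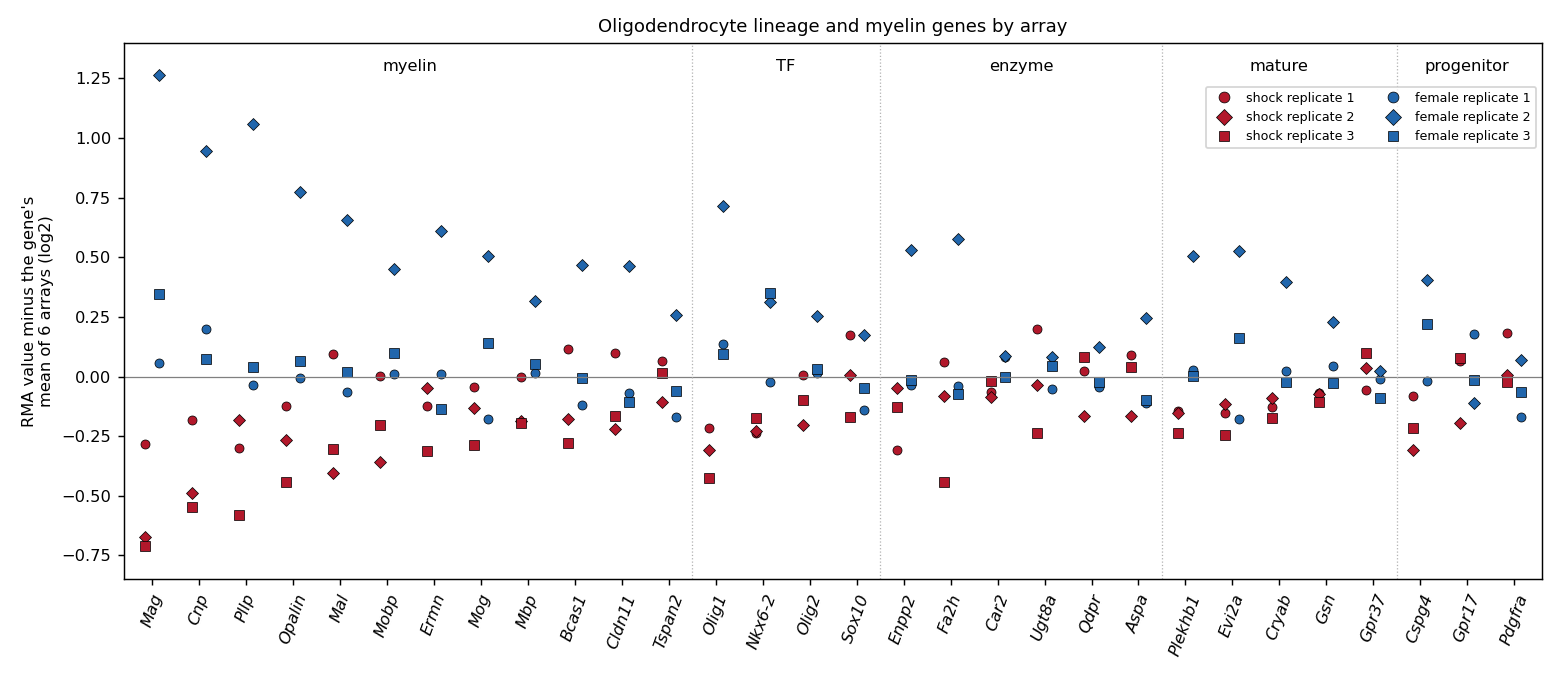
Each point is the RMA value of one array minus the mean of 6 arrays for that gene (log2, y axis), for the 30 tested genes ordered by role (x axis). Red marks are shock and blue marks female arrays, and the blue diamonds of female replicate 2 lie at the top for 24 of the 30 genes.

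Among the myelin proteins, 2 of 12 tested genes were lower in shock, none was higher, and 10 did not pass. Mag, which encodes an adhesion molecule of the innermost myelin membrane facing the axon, changed most of the 30 genes at their representative probe sets. Its RMA values (log2, replicates 1 to 3 here and below) were 7.91, 7.52 and 7.48 in shock, against 8.25, 9.46 and 8.54 in female. All shock arrays lay below all female arrays, and the female arrays spread more widely. The means were 7.64 ± 0.24 in shock and 8.75 ± 0.63 in female (SD, n = 3 arrays each), a difference of -1.11 (standard error 0.26, limma adjusted p = 0.0215), or 2.16-fold higher in female. Its probe set is listed on chromosome 7, positions 30899175 to 30912883, minus strand (no source used here names the build of these positions). Cnp encodes a phosphodiesterase of non-compact myelin (probe set on chromosome 11, positions 100574972 to 100581727, plus strand), and its values were 9.06, 8.76 and 8.70 in shock, against 9.45, 10.19 and 9.32 in female. Here too the groups did not overlap. The means were 8.84 ± 0.19 in shock and 9.65 ± 0.47 in female (SD, n = 3 arrays each), a difference of -0.81 (standard error 0.21, limma adjusted p = 0.0269). Without female replicate 2 both kept the call, with differences of -0.76 for Mag and -0.54 for Cnp. Neither passed when any 1 shock array was left out (adjusted p between 0.0747 and 0.0956).

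The promoters of Mag, Cnp and Mobp, which encodes a basic protein of compact myelin, are shown for the letters ACAAAG or, on the other strand, CTTTGT. Of the called genes, Mag and Cnp hold them, Nkx6-2 and Cspg4 do not, and Olig1 had no promoter sequence to search. Mobp, which did not pass, holds the most matches. These letters are one form of the core recognised by SOX proteins, the family of the lineage factor Sox10. Each sequence gives the 250 bases before the first start that RefSeq lists (build GRCm38.p6), 5′ to 3′ on the strand of the gene, with matches in capitals. The regions are chr7:30914864-30915113 (minus strand), chr11:100574689-100574938 (plus strand) and chr9:120149492-120149741 (plus strand).
Mag: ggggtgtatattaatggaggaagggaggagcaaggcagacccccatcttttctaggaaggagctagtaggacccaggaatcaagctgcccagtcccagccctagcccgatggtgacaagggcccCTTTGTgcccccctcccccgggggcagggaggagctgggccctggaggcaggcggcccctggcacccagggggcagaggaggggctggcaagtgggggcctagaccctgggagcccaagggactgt
Cnp: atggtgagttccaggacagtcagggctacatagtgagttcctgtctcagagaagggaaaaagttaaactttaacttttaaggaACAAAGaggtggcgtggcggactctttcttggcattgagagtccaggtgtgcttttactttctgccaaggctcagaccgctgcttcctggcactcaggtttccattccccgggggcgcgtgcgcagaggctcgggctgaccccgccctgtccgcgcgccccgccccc
Mobp: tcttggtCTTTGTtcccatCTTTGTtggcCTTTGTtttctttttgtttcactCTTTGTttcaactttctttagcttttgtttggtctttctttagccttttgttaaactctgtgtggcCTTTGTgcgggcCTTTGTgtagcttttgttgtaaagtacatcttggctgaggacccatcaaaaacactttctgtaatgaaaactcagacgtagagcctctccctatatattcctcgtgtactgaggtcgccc
Mag and Cnp hold 1 match each and Mobp holds 6, a number reached by no other of the 27025 genes in the table. Of the 21 genes of the group with a promoter there, 5 held a match (23.8%), against 16.5% of all genes. The other two were Opalin and Gjb1, with 1 match each. The letters CATCTG or, on the other strand, CAGATG, a form of the E-box, stood in 7 of the 21 (33.3%) and in 14.5% of all genes. Other forms went either way. The SOX form AACAAAG was in 9.52% of the 21 and 4.99% of all genes, AACAAT in 14.3% and 9.65%, and ACAANG in 47.6% and 36.6%. The general E-box CANNTG was in 66.7% of the 21 and 66.04% of all genes, CAGCTG in 9.52% and 12.8%, CACGTG in none of the 21 and 6.05% of all, and the shorter SOX form ACAAT in 23.8% and 28.3%. CATTGT was in 9.52% of the 21 and 10.99% of all genes, TATAAA in 9.52% and 12.97%, and TGTTCT in 4.76% and 16.2%. CCGCCC was in 38.1% and 32.9%, and CCAAT in 38.1% and 34.5%. In all 14 motifs were counted on both strands, some of them overlapping one another, and ACAAAG and CATCTG were picked after the counts were seen, so the shares are a description of letters and show no binding.

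The other myelin genes had smaller differences in the same direction, and none passed at its representative probe set. Opalin, which encodes a glycoprotein of the oligodendrocyte membrane, had values of 8.32, 8.18 and 8.00 in shock, against 8.44, 9.22 and 8.51 in female (difference -0.56, limma adjusted p = 0.0623). Pllp, which encodes plasmolipin, had 7.59, 7.71 and 7.31 in shock, against 7.85, 8.94 and 7.93 in female (difference -0.71, limma adjusted p = 0.0695). In both genes the groups did not overlap, and female replicate 2 lay well above the other 5 arrays. Mobp had 12.56, 12.20 and 12.35 in shock, against 12.57, 13.01 and 12.66 in female (difference -0.37, limma adjusted p = 0.0801). For Mbp, the most studied compact myelin protein, the values were 13.15, 12.97 and 12.96 in shock, against 13.17, 13.47 and 13.21 in female (difference -0.26, limma adjusted p = 0.130). In Mobp and Mbp the groups came close, with shock replicate 1 just below female replicate 1. Without female replicate 2 the differences were -0.31 for Opalin, -0.36 for Pllp, -0.24 for Mobp and -0.16 for Mbp. The remaining 6 genes were Mal (-0.41), Ermn (-0.32), Mog (-0.31), Bcas1 (-0.23), the tight junction gene Cldn11 (-0.19) and the tetraspanin gene Tspan2 (-0.02), and in each of them the groups overlapped. Gjb1 lay at 4.65, 4.40 and 4.64 in shock, against 5.04, 5.08 and 4.88 in female, under the level at which probe sets were tested.

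**Figure D3:**
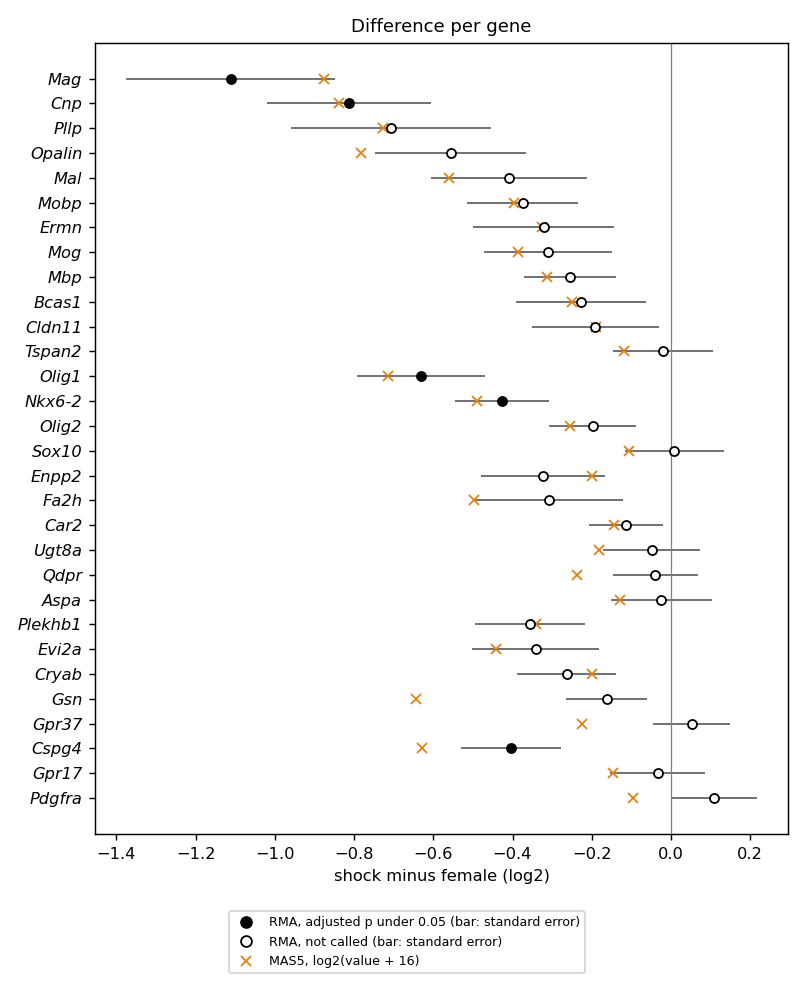
Circles show the difference of shock minus female on RMA values (log2, x axis) for the 30 genes, with bars of 1 standard error, filled where the adjusted p was under 0.05, and crosses show the difference on MAS5 values. The circles run from -1.11 for Mag to 0.11 for Pdgfra, and all 30 crosses lie below 0.

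Of the 4 lineage transcription factor genes, Olig1 and Nkx6-2 were lower in shock, and Olig2 and Sox10 did not pass. Olig1, a basic helix-loop-helix factor needed for maturation and repair of myelin (probe set on chromosome 16, positions 91269744 to 91271939, plus strand), had values of 9.41, 9.32 and 9.20 in shock, against 9.76, 10.34 and 9.72 in female. Female replicate 2 was highest, and the other female arrays still lay above every shock array. The means were 9.31 ± 0.10 in shock and 9.94 ± 0.35 in female (SD, n = 3 arrays each), a difference of -0.63 (standard error 0.16, limma adjusted p = 0.0266). Without female replicate 2 it was -0.43, and the call held. Nkx6-2, a homeobox factor of myelinating cells (probe set on chromosome 7, positions 139579375 to 139582797, minus strand), had values of 8.16, 8.17 and 8.22 in shock, against 8.37, 8.71 and 8.75 in female. This was the only one of the 5 called genes in which female replicate 3, and not replicate 2, was highest. The means were 8.18 ± 0.03 in shock and 8.61 ± 0.21 in female (SD, n = 3 arrays each), a difference of -0.43 (standard error 0.12, limma adjusted p = 0.0344), and without female replicate 3 it was -0.36 and no longer passed (limma adjusted p = 0.0915). Olig2, the partner factor that also specifies the lineage, had values of 8.03, 7.82 and 7.92 in shock, against 8.04, 8.28 and 8.05 in female. Its groups touched without overlapping, and its difference was -0.20 (limma adjusted p = 0.203). Sox10, which drives the myelin genes, had values of 10.08, 9.92 and 9.74 in shock, against 9.77, 10.08 and 9.86 in female, with the groups fully mixed (difference 0.01, limma adjusted p = 0.965). As with Mag and Cnp, the calls of Olig1 and Nkx6-2 were lost when any 1 shock array was left out.

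None of the 6 lipid and metabolite enzyme genes passed, and their differences lay closest to 0 of the mature groups, with a median of -0.08. Enpp2, which encodes the lysophospholipase D autotaxin, was at -0.32, and Fa2h, which hydroxylates the fatty acids of myelin galactolipids, was at -0.31. Ugt8a, which makes galactosylceramide, was at -0.05, Aspa, which splits N-acetylaspartate, at -0.02, the pterin reductase gene Qdpr at -0.04 and the carbonic anhydrase gene Car2 at -0.11. Among 5 other genes of mature oligodendrocytes, none passed either. Plekhb1, which encodes a protein with a pleckstrin homology domain, had values of 11.01, 11.00 and 10.92 in shock, against 11.18, 11.66 and 11.15 in female (difference -0.36, limma adjusted p = 0.0884), with no overlap. Evi2a had values of 7.09, 7.13 and 6.99 in shock, against 7.06, 7.77 and 7.40 in female (difference -0.34, limma adjusted p = 0.139), and female replicate 1 lay among the shock arrays. Without female replicate 2 these were -0.19 and -0.16. The chaperone gene Cryab was at -0.26, the actin-severing gene Gsn at -0.16 and the receptor gene Gpr37 at 0.05. Of the enzyme and other mature genes, Enpp2, Car2, Cryab, Gsn and Plekhb1 had groups that did not overlap.

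Of the 3 progenitor and precursor genes, Cspg4 was lower in shock and the others did not pass. Cspg4 encodes the proteoglycan NG2, which pericytes of the vessel wall also carry (probe set on chromosome 9, positions 56865032 to 56899872, plus strand), and its values were 7.61, 7.38 and 7.47 in shock, against 7.67, 8.10 and 7.91 in female. The groups did not overlap, although shock replicate 1 came close to female replicate 1. The means were 7.49 ± 0.11 in shock and 7.89 ± 0.21 in female (SD, n = 3 arrays each), a difference of -0.40 (standard error 0.13, limma adjusted p = 0.0481). This call was lost when any 1 array other than female replicate 1 was left out, and with no filter, a further quantile normalization, median centring, another prior or the mean of its probe sets (limma adjusted p between 0.0501 and 0.150), and its second probe set was at -0.10 (limma adjusted p = 0.605). Pdgfra, the growth factor receptor of progenitors, had values of 8.40, 8.23 and 8.20 in shock, against 8.05, 8.29 and 8.16 in female (difference 0.11, limma adjusted p = 0.474). The purinergic-like receptor gene Gpr17, a marker of committed precursors, had values of 7.44, 7.19 and 7.46 in shock, against 7.56, 7.27 and 7.36 in female (difference -0.03, limma adjusted p = 0.850). In both genes the groups overlapped, and in Gpr17 female replicate 2 was the lowest female array. Whether mature and progenitor genes differ from each other in their response was not tested.

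Different probe sets of one gene often gave different sizes of change. Of 59 tested probe sets of the 30 genes, 15 passed, all lower in shock (25.4%, against 11.5% of all tested probe sets), and 51 lay below 0, or 86.4% against 47.6%. Calls were found in 11 genes at one probe set or another, 6 of which, Mbp, Mobp, Cryab, Sox10, Mal and Bcas1, were not called at the representative. The share of all tested genes called at any probe set was not counted, and a gene with more probe sets has more chances of a call. For Mbp, 3 of 8 probe sets passed. One of them, listed over nearly the whole interval that the probe sets of the gene cover, had values of 10.69, 10.62 and 10.40 in shock, against 11.54, 12.52 and 11.66 in female, a difference of -1.34 (limma adjusted p = 0.00739), and the others were at -0.99 and -0.92. A probe set listed over the same interval as the last of these was at -0.08 and did not pass (limma adjusted p = 0.546), so the listed interval alone did not set apart the called probe sets. The 4 probe sets listed only over the 3' end of the gene, the representative among them, lay between -0.26 and -0.13, and none passed. For Mobp, 2 of 5 passed, at -1.33 (values of 7.51, 7.58 and 7.46 in shock, against 8.42, 9.60 and 8.53 in female) and -0.80. Cryab, which encodes a small heat shock protein, was at -1.11 with a limma adjusted p of 0.00673 at the probe set listed over the whole gene, and at -0.26 at the one over its 3' end. Cnp passed at both probe sets that cover the gene (-0.81 and -0.66) and not at the 3' end (-0.22).

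Sox10 was the only transcription factor gene of the group with several probe sets. Its 3 probe sets, listed over nearly the same interval, were at 0.01, -0.45 and -0.89, and only the last passed (limma adjusted p = 0.0232). The values at that probe set were 7.24, 7.03 and 6.84 in shock, against 7.59, 8.49 and 7.69 in female, with no overlap. In 8 genes of the group, tested probe sets lay 500 to 20000 bases apart by the middle of their listed intervals. In several of them, such as Mal and Tspan2, one interval lies within the other. The 5' probe set had the lower difference in all 8. This also held for 76.9% of the 2740 genes with such probe sets. The median difference in the 8 genes was -0.51 at the 5' and -0.18 at the 3' probe set, against -0.11 and 0.14 over all such genes. Gsn went both ways, with -0.16 at its representative and 0.09 to 0.25 at 4 probe sets over its 3' end, none of them called. Differences between probe sets of a gene were not tested.

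**Figure D4:**
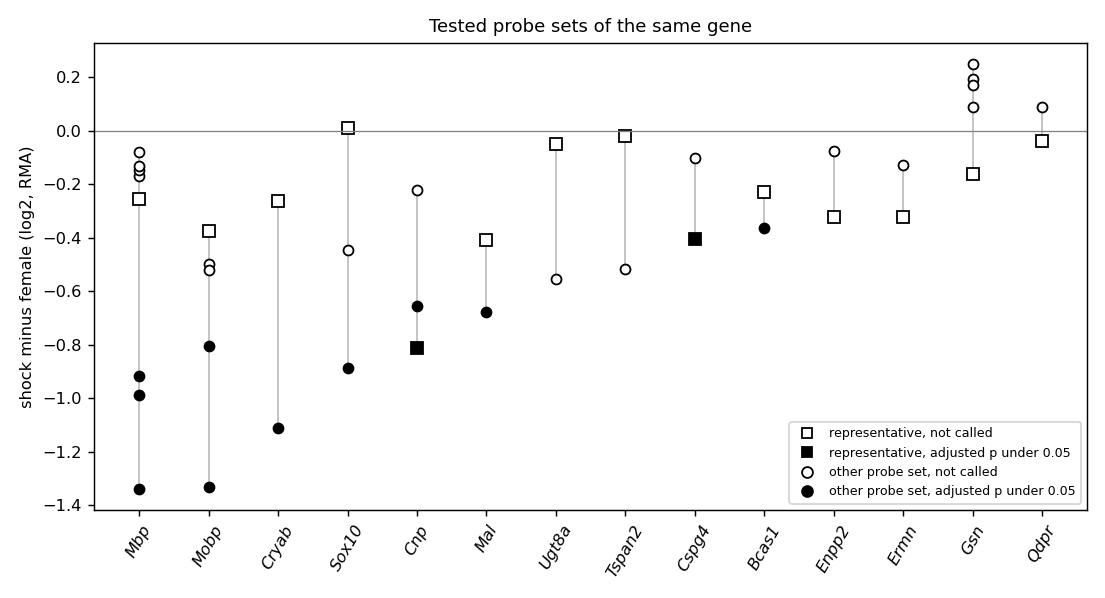
Each mark is the difference of shock minus female (log2, RMA, y axis) at 1 tested probe set of the 14 genes that have several, with squares for the representatives and filled marks for an adjusted p under 0.05. In Mbp the marks run from -1.34 to -0.08, and every filled mark lies below 0.

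On the MAS5 values, a second processing of the same arrays, no gene of the group passed at its representative. All 30 differences lay below 0, including those of Sox10, Gpr37 and Pdgfra, which lay above 0 on RMA. This compares with a difference below 0 in 50.4% of all tested genes. The median of the 30 was -0.32 against -0.00281 over all genes. Only 1.95% of all tested genes passed with these values, and 1.8% passed as lower in shock. The MAS5 differences of the 5 genes called on RMA were -0.88 for Mag (limma adjusted p = 0.125), -0.84 for Cnp (0.0793), -0.71 for Olig1 (0.0795), -0.49 for Nkx6-2 (0.246) and -0.63 for Cspg4 (0.107), all on the log2(value + 16) scale. At other probe sets 4 passed on MAS5, all lower in shock as were 1.89% of all tested probe sets. They were 2 of Mbp (-1.35 and -1.08), 1 of Cryab (-1.18) and 1 of Sox10 (-1.29). In the authors' deposited table of RMA values, which writes a higher level in female as a positive fold, Mag had a fold of 2.09 and Cnp of 1.58. No gene of the 30 had an FDR below 0.187 in the authors' deposited table.

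Further genes of the lineage, taken from a list that holds none of the 32, were set beside them. Of 27 other oligodendrocyte genes tested, 4 were lower in shock, none was higher and 23 did not pass (9.4% of all tested genes were lower), with 17 below 0 and a median of -0.30 (-0.13 without female replicate 2). The 4 were Josd2, which encodes a deubiquitinase (-1.06, limma adjusted p = 0.00401), the phosphatase inhibitor gene Ppp1r14a (-1.12), the phospholipase gene Pla2g16 (-0.64) and Gjc3, which encodes the connexin of oligodendrocytes and Schwann cells (-0.52). By array, the median of the 27 genes relative to each gene's mean was -0.06, -0.12 and -0.19 in shock, against -0.02, 0.43 and -0.01 in female, with female replicate 2 highest again. Among 9 other progenitor genes, 3 were higher in shock, none was lower and 6 did not pass, with a median of 0.31. Over all tested genes, 10.6% were higher in shock. The 3 were the protocadherin gene Pcdh15 (0.51, limma adjusted p = 0.0136), the receptor phosphatase gene Ptprz1 (0.47) and Lhfpl3 (0.31). On MAS5 values the median of these 9 was 0.06 and none of the 3 passed. Neurons and astrocytes also express several of them.

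Markers of other cells were set beside the oligodendrocyte genes. All 12 neuronal markers were bright, with mean RMA values from 9.78 to 13.63 and no MAS5 signal under 839. Of these, 5 were lower in shock, 1 was higher and 6 did not pass, and the median was -0.00281. Lower in shock were the glutamate transporter gene Slc17a7 (-0.98), the tubulin gene Tubb3 (-0.77), the synaptic vesicle gene Syp (-0.42), the stathmin gene Stmn2 (-0.42) and the enolase gene Eno2 (-0.36), and higher was the GABA synthesis gene Gad1 (0.39). Most glial and vascular markers were bright enough to be tested as well. Lower in shock were 3 of 10 astrocyte markers (median -0.08), 4 of 9 microglial markers (median -0.10) and 2 of 7 endothelial markers (median -0.23), and none of these was higher, where 9.4% of all tested genes were lower in shock. The called genes were Mlc1 (-0.64), S100b (-0.66) and Aldoc (-0.56) of the astrocyte list, the complement genes C1qb (-0.74) and C1qc (-0.56) with Laptm5 (-0.67) and Tmem119 (-0.42) of the microglial list, and Slc2a1 (-0.37), a glucose transporter gene, with the claudin gene Cldn5 (-0.78) of the endothelial list. The lists were mixed in direction. The difference was below 0 in 5 of 10 astrocyte, 8 of 9 microglial and 4 of 7 endothelial markers, against 42.3% of all tested genes. Above 0 without passing were, among others, Slc1a3 (0.41, no overlap, limma adjusted p = 0.0539) of the astrocyte list and Slco1a4 (0.25) of the endothelial list. By array, the microglial median was -0.08, -0.07 and -0.16 in shock, against -0.03, 0.39 and 0.09 in female, and the endothelial one -0.18, -0.07 and -0.05 in shock, against 0.04, 0.29 and 0.04 in female. As in the oligodendrocyte genes, female replicate 2 was the highest array for both. The astrocyte median was 0.00, -0.06 and 0.01 in shock, against 0.20, 0.08 and -0.12 in female, where female replicate 1 was highest. The summed MAS5 signal of the microglial markers ran from 4468 to 5033 in shock and from 4363 to 6308 in female. That of the endothelial markers ran from 2935 to 3318 in shock and from 3153 to 3734 in female, and that of the astrocyte markers from 27929 to 29965 in shock and from 26530 to 30935 in female. The ranges overlapped between the groups in all 3 lists. Among the tested markers, the lowest MAS5 signal on any array was 129 for astrocytes, 53.4 for microglia and 109 for endothelium. The lower quartile of all probe sets ran from 38.6 to 55.7 over the arrays. Markers too dim to be tested are not in these values. Of 4 markers of Schwann cells, which make the myelin of peripheral nerves, 2 were tested and neither passed. The part of other cell types in the difference of the oligodendrocyte genes was not tested.

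**Figure D5:**
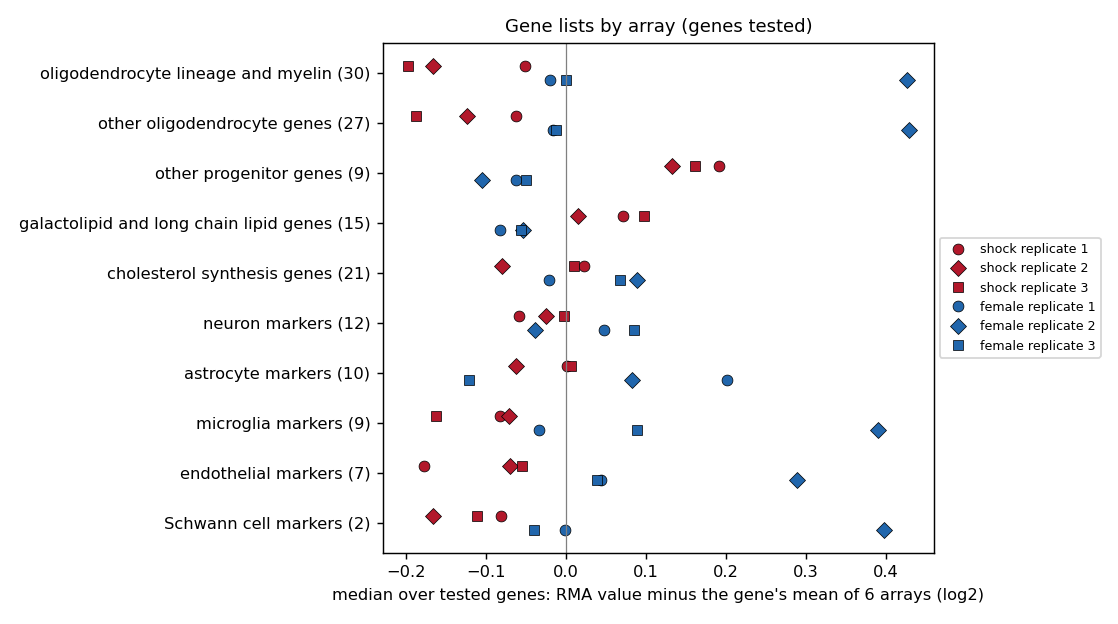
Each mark is the median over the tested genes of a list (number in parentheses), each relative to its mean of 6 arrays (log2, x axis), for 1 array, with red for shock and blue for female. In the top row the shock arrays lie left of all female arrays and female replicate 2 lies at 0.43, and in the rows of other oligodendrocyte, microglial, endothelial and Schwann cell genes this array is again farthest right.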

How the data were processed

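RNA of 3 shock and 3 female samples was measured on Affymetrix Mouse 430 2.0 arrays. Per the submitters' processing notes, the authors processed each array with RMA, deposited as log2 values, and with MAS5, deposited as linear intensity values, without versions or a MAS5 scaling target that the sources used here name. The authors' deposited tables also hold, per the file headers, group averages on the log2 scale, a standard deviation, a signed fold change (both treated as a score) and ANOVA p-values with an FDR. Gene symbols and positions come from these tables.

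Shock minus female was fitted on the RMA values with limma 3.58.1 (lmFit, eBayes) in R 4.3.3, with group as the only term, on the 27022 of 45037 probe sets (64 controls apart) that were brighter on average than the 40th percentile (6.31). P-values are 2-sided, with Benjamini-Hochberg adjustment over these probe sets. MAS5 values entered as log2(value + 16). The number of arrays limits the precision. A probe set's place along a transcript is the middle of its listed interval. Named genes are all members, and of other lists the called genes and up to 4 with the smallest p. The members and lists were chosen with earlier results of these data known. The fit was tested on simulated data. Alternatives were other filters, normalizations, variance priors, array weights, a replicate block, a covariate for the signal along transcripts, other representatives and leaving out each array. Promoter sequences are from RefSeq (GRCm38.p6), with no entry for 10 of the 31 genes. Replicates 1 to 3 share a number between groups, and no label pairs them.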

Additional observations from a re-analysis of the deposited data

How the results depend on the processing

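How many of the 30 genes passed varied with the arrays and settings used. Leaving out 1 array gave 0 to 10 called genes, with 0 without any 1 shock array, 3 without female replicate 3 and 10 without female replicate 1, and 321 to 6756 called probe sets, with 321, 1562 and 1312 without shock replicates 1, 2 and 3 and 3628 without female replicate 3. No setting called a gene higher in shock. MAS5 values called 0 genes of the group with either pseudocount (543 and 277 probe sets), array weights 8 (8752 probe sets) and the most variable probe set as representative 10. That last choice favours probe sets in which the groups differ, in any gene with several. The share of all genes it called was not counted, so the 10 cannot be set against it. The other filters, normalizations, priors and representatives gave 4 to 6, not always the same genes. Of all probe sets, 4919 of 45037 passed without a filter and 4159 of 18015 with a filter at the 60th percentile. Of 27022, 5498 passed with a further quantile normalization, 5806 with median centring and 5816 with the other prior. For the other representatives and the mean of probe sets the share of all genes is not given here. Without a filter Gjb1 was called lower in shock (-0.44, limma adjusted p = 0.0352) and Cspg4 was lost, and with the mean of probe sets Cnp (limma adjusted p = 0.0616) and Cspg4 were lost while Mbp, Mobp and Cryab were called. The median difference lay between -0.37 and -0.13 in all settings but one. The exception was the 5' to 3' signal as covariate, with 0 called genes, 1 called probe set and a median of 0.19. Under it 17 genes changed sign: Mog 0.24, Cldn11 0.32, Mal 0.18, Pllp 0.51, Tspan2 0.36, Opalin 0.22, Ermn 0.45, Bcas1 0.25, Olig1 0.00665, Fa2h 0.31, Aspa 0.31, Enpp2 0.42, Qdpr 0.0984, Cryab 0.20, Gsn 0.0873, Evi2a 0.28, Plekhb1 0.20. The limma adjusted p of these 17 values ran from 0.542 to 0.996. The covariate does not overlap between the groups, so this fit cannot separate it from the group and shows no reversal. Under the other settings that keep all arrays, sign changes touched genes that were not called in the fit described above. On MAS5 values they were Sox10 -0.10, Gpr37 -0.22 and Pdgfra -0.0964 (pseudocount 1: Sox10 -0.11, Gpr37 -0.23, Pdgfra -0.0989). With a further quantile normalization Sox10 was at -0.0249, and with median centring Tspan2 was at 0.00321. With array weights they were Tspan2 0.0657, Aspa 0.0733 and Qdpr 0.0104. With the mean of probe sets they were Sox10 -0.44, Qdpr 0.0237 and Gsn 0.11. With either other representative Sox10 was at -0.89, far from 0, and was called lower in shock (limma adjusted p = 0.0232). Without 1 array the ranges of the genes that changed sign were Sox10 -0.0767 to 0.0974, Tspan2 -0.11 to 0.10, Aspa -0.0859 to 0.0926, Qdpr -0.0904 to 0.0331, Gpr17 -0.0972 to 0.0550, Ugt8a -0.16 to 0.0566. With the replicate block, 6 genes (Pllp and Opalin gained, Cspg4 lost) and 7120 probe sets were called, but same-numbered arrays deviated together with correlations of 0.0118, 0.207 and 0.154, and shock replicate 1 correlated best with female replicate 3 (0.0654), so the numbers do not pair the arrays. The causes of these changes were not tested. Of 387 gene values under the 13 settings that keep all arrays, 321 kept direction and side of the threshold, 21 lost the call, 12 gained it and 33 changed sign. A value that changed sign was counted only as such, also where a call was gained, as for Sox10, or lost, as for Olig1.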

Other observations

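Lipid supply genes outside the 32 did not move one way. For comparison with both lists below, 9.4% of all tested genes were lower in shock and 10.6% were higher. Of 21 genes of cholesterol synthesis, a lipid that myelin holds in large amounts and that all cells make, 5 were lower in shock, 1 was higher and 15 did not pass, with a median of -0.12. Lower were Fdps (-0.65, limma adjusted p = 0.00793), Fdft1 (-0.58) and Pmvk (-0.46), enzymes of the isoprenoid and squalene steps, Mvk (-0.39), and Srebf2 (-0.42), which encodes the factor that switches the pathway on. Insig1 (0.36), which encodes a protein that holds that factor back, was higher in shock. By array the median of the 21 was 0.02, -0.08 and 0.01 in shock, against -0.02, 0.09 and 0.07 in female, and female replicate 2 lay close to female replicate 3. Of 15 galactolipid and very long chain lipid genes, Psap (-0.59), which encodes the precursor of the saposins, and the elongase gene Elovl1 (-0.65) were lower in shock, Galc (0.34), which degrades galactosylceramide, and Sptlc1 (0.39), which starts sphingolipid synthesis, were higher, and 11 did not pass (median 0.10). Of these 10 called lipid genes, Fdft1 passed on MAS5 values (-0.65, limma adjusted p = 0.0426).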
